A study of Homo sapiens with 4 samples.

Results

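The HOX genes encode homeodomain transcription factors that lie in 4 clusters, and they were taken here as the rows of the deposited table whose symbol is HOXA, HOXB, HOXC or HOXD followed by a paralog number. The rule found 39 members among 51136 rows. RNA-seq had been run on cells labelled A549, an established human lung adenocarcinoma line, grown in medium with 10% serum. The si-DLX6 group (2 libraries, genotype label DLX6 knockdown) had been transfected with a small interfering RNA against DLX6, itself a homeobox gene of the distal-less family. The si-control group (2 libraries, genotype label WT) had received a control small interfering RNA. All 4 samples also carry a treatment label of adipogenic differentiation, of which neither the titles nor the protocols speak. Nothing in the labels ties the libraries of a group to separate cultures, and each p-value therefore reflects the spread between libraries that may be technical replicates. With si-DLX6 that spread may also include a difference between small interfering RNA sequences.

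HOX proteins pattern the head-to-tail axis of the embryo. The order of the genes along a cluster follows the order of the body regions in which they act, so that low paralog numbers belong to anterior regions and high numbers to posterior ones. Genes with the same number in different clusters are paralogs that descend from one ancestral gene. HOX proteins bind DNA together with PBX and MEIS proteins, the TALE cofactors, and adult cells and cancer lines often keep a HOX pattern of their tissue of origin. Polycomb proteins hold silent HOX genes repressed, MLL and other Trithorax proteins keep active ones on, and retinoic acid turns on the anterior genes in embryos.

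The values were checked against the labels before the members were described. DLX6, the targeted gene, had 0.916 and 0.45 FPKM (reads scaled to gene length and library total) in the si-DLX6 libraries, against 3.27 and 3.47 FPKM in the si-control libraries. Its log2 fold change was −1.39 (SE 0.20, limma adjusted p = 0.00859), so the direction followed the labels. The values went against the cell line label in part. CDKN2A, a cell cycle inhibitor gene known to be deleted in A549, had 21.2 and 23 FPKM in si-DLX6 libraries and 22.9 and 19.4 FPKM in si-control libraries. Its neighbour MTAP, known to be lost with it, had 7.03 and 9.03 FPKM in si-DLX6 libraries and 11.9 and 15.6 FPKM in si-control libraries. ALDH1A1 and AKR1B10, known to be abundant in A549, were under 0.5 FPKM in all 4 libraries. These 4 genes were picked after their values were seen. Of 8 epithelial markers 4 were under 1 FPKM in all libraries, among them EPCAM and CDH1, while KRT18 had 464 and 422 FPKM in si-DLX6 libraries and 475 and 447 FPKM in si-control libraries. The summed epithelial markers spanned 528 to 579 FPKM with si-DLX6 and 573 to 615 FPKM with si-control, nearly all from KRT18 and KRT8. The median log2 fold change of the 4 tested epithelial markers was 0.18, with −0.30 for KRT8 and −0.06 for KRT18. Of the other tested ones MUC1, with 2.96 and 3.72 FPKM with si-DLX6 and 1.26 and 1.69 FPKM with si-control, rose (0.81, limma adjusted p = 0.0303). KRT7 had 1.04 and 1.33 FPKM with si-DLX6 and 0.589 and 0.666 FPKM with si-control. It was tested only because both si-DLX6 values passed 1 FPKM, which favours a positive change. All 8 fibroblast markers and all 6 endothelial markers stayed under 1 FPKM. Of 8 adipocyte markers 6 were under 1 FPKM, with ADIPOQ, LEP and LPL at 0, and of 8 immune markers PTPRC, CD3D, MS4A1 and LYZ were at 0. The summed immune markers were 105 to 119 FPKM with si-DLX6 and 65.3 to 70.6 FPKM with si-control, nearly all from the lysosomal gene CD68, which rose (log2 fold change 0.72, limma adjusted p = 0.0101). The summed adipocyte markers were 6.36 to 7.51 FPKM with si-DLX6 and 5.11 to 5.71 FPKM with si-control, mostly CFD and PPARG. The summed fibroblast markers were 0.759 to 0.807 FPKM with si-DLX6 and 0.283 to 0.343 FPKM with si-control, and the endothelial ones 0.583 to 1 FPKM with si-DLX6 and 0.166 to 0.293 FPKM with si-control. The part of these markers in the HOX results was not tested. The HOX values below are therefore those of the cells labelled A549, and which cells these were was not tested. Library totals, recovered from the values, were 10485013 and 10665357 reads with si-DLX6 and 12075285 and 9678221 reads with si-control.

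The cells expressed a broad set of HOX genes dominated by the HOXB cluster and by paralogs 4 to 8. Positions are those of GENCODE release 29 on GRCh38, in which all 39 symbols matched. HOXA (11 genes) lies on chromosome 7, minus strand, and HOXB (10 genes) occupies chromosome 17, minus strand, 48528526 to 48729178. HOXC (9 genes) occupies chromosome 12, plus strand, 53938765 to 54056030, and HOXD (9 genes) chromosome 2, plus strand, 176092891 to 176190907. The summed HOX level was 325 and 301 FPKM in si-DLX6 libraries, against 281 and 266 FPKM in si-control libraries. HOXB held 64% and 64.5% of that sum with si-DLX6 and 62.4% and 61% with si-control. HOXC held 20.4% and 20% with si-DLX6 and 22% and 24% with si-control, and HOXA 13.6% and 13.5% with si-DLX6 and 12.9% and 12.5% with si-control. HOXD held the smallest share, with 2.07% and 2.02% in si-DLX6 libraries and 2.67% and 2.54% in si-control libraries, though HOXD9 averaged 3.65 FPKM.

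**Figure D1:**
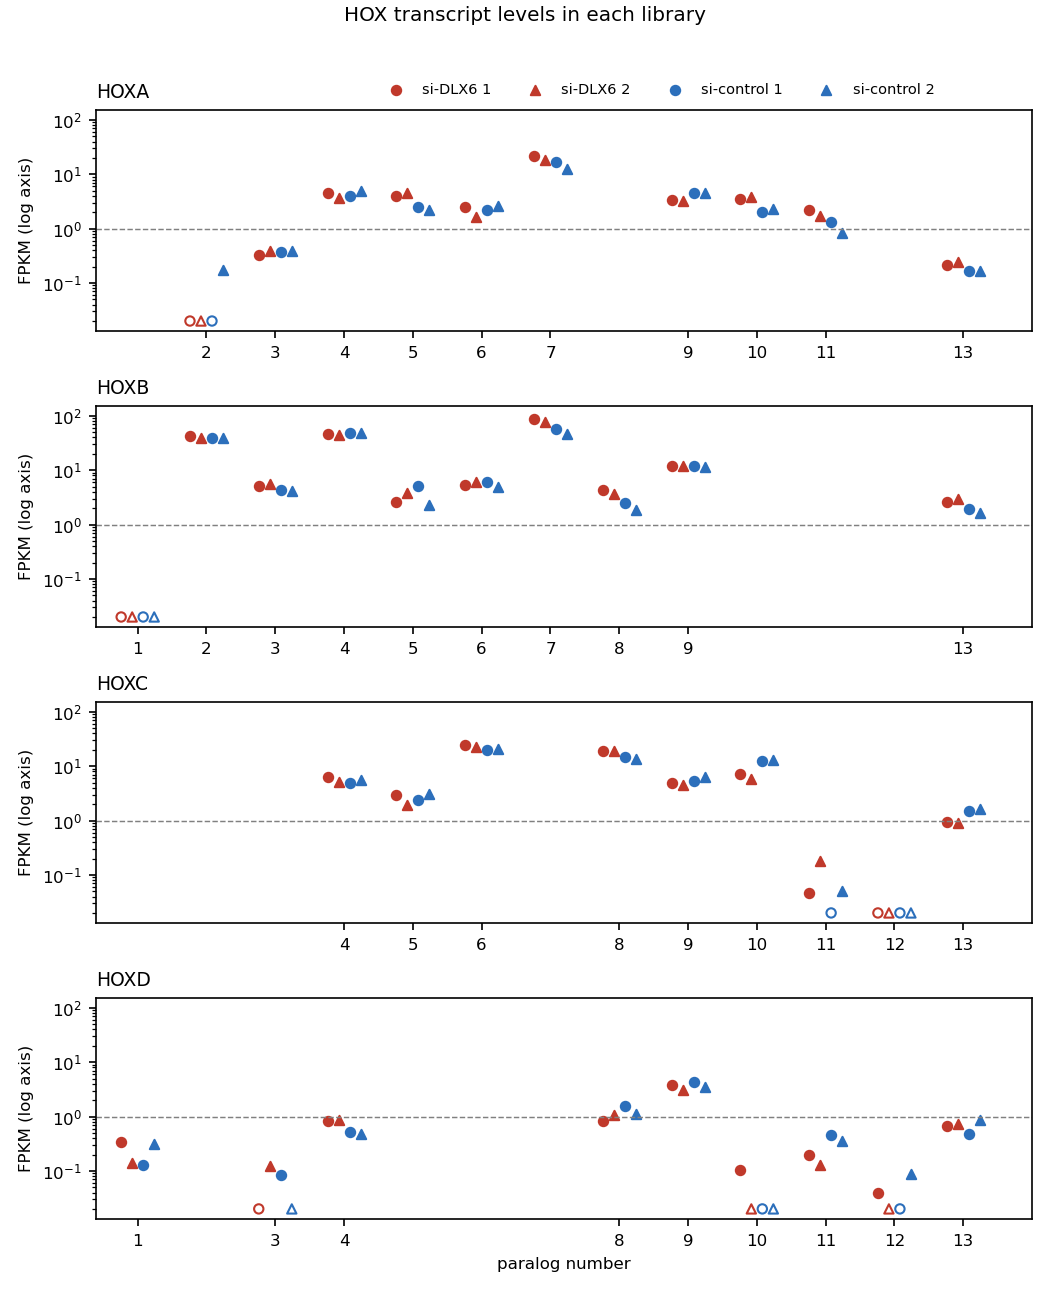
FPKM on a log axis of HOX genes by cluster (panels) and paralog number, for the 2 si-DLX6 libraries (red) and the 2 si-control libraries (blue). Open symbols at the bottom edge are values of 0, and the dashed line marks 1 FPKM. HOXB2, HOXB4 and HOXB7 stand above 39 FPKM in every library, and HOXD genes other than HOXD9 lie between 0 and 1.57 FPKM.

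The most abundant HOX transcripts were HOXB7, HOXB4 and HOXB2, which together made up 54.3% and 53.3% of the HOX sum in si-DLX6 libraries and 51.1% and 51% in si-control libraries. HOXB7 ranked highest in both si-DLX6 libraries and in si-control library 1, and HOXB4 ranked highest in si-control library 2. HOXB2 was the third and HOXC6 the fourth in all 4 libraries. Averaged over all libraries, HOXB7 stood at 66.6, HOXB4 at 47.1, HOXB2 at 40.4 and HOXC6 at 22 FPKM. HOXA7 and HOXC8, at 17.1 and 16.6 FPKM, changed places between libraries and their order did not hold beyond the spread. The next were HOXB9 at 11.8 and HOXC10 at 9.74 FPKM, and HOXC10 exceeded HOXB9 in both si-control libraries. The remaining members averaged under 6 FPKM.

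Some members were not detected. HOXB1, an anterior gene of the hindbrain, and HOXC12, a posterior gene, were at 0 in all 4 libraries, which allows up to 3 reads per library (counting error only), or 0.286 and 0.281 RPM in si-DLX6 libraries and 0.248 and 0.31 RPM in si-control libraries. Another 11 members were above 0 in at least 1 library but under the level needed for a test, at least 1 FPKM in at least 2 libraries. They were HOXA2, HOXA3, HOXA13, HOXC11, HOXD1, HOXD3, HOXD4, HOXD10, HOXD11, HOXD12 and HOXD13. Their highest value in any library was the 0.864 FPKM of HOXD13 in si-control library 2. HOXA2 had at least 3 reads in si-control library 2 and 0 in the other libraries, and HOXD10 had at least 1 read in si-DLX6 library 1 and 0 in the others. These read numbers are the smallest that give the values. HOXD4, at 0.812 and 0.852 FPKM with si-DLX6 and 0.517 and 0.469 FPKM with si-control, had the next highest value among untested members. By cluster, 8 of 11 HOXA, 9 of 10 HOXB, 7 of 9 HOXC and 2 of 9 HOXD genes were tested. At 1 FPKM or more in both libraries of a group there were 24 members with si-DLX6 and 25 with si-control.

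By paralog number, the central genes (4 to 8) supplied 71.4% and 70.8% of the HOX sum in si-DLX6 libraries and 66.7% and 64.5% in si-control libraries. The posterior genes (9 to 13) supplied 12.8% and 13.1% with si-DLX6 and 16.6% and 17.7% with si-control. The anterior genes (1 to 3) supplied 15.8% and 16.2% with si-DLX6 and 16.7% and 17.8% with si-control. The shares of all 3 classes did not overlap between the groups, and no test was made of them. A share also moves when another class changes. The anterior sum was 51.4 and 48.6 FPKM with si-DLX6 and 46.9 and 47.5 FPKM with si-control, higher where its share was lower. The central sum was 232 and 213 FPKM with si-DLX6 and 187 and 172 FPKM with si-control. The posterior sum was 41.6 and 39.4 FPKM with si-DLX6 and 46.6 and 47.1 FPKM with si-control. With 2 libraries a group an exact permutation test of a single value cannot go below p = 0.333.

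The question of the comparison was which HOX transcripts differ when DLX6 is knocked down. HOXB7 and HOXA5 rose and HOXC10 fell with si-DLX6, and the other 23 tested members did not pass the test. In bulk RNA, fewer cells with a transcript and less of it per cell cannot be told apart. Thus 3 of 26 tested members (11.5%) were called at an adjusted p under 0.05 (limma on log2(FPKM + 1), Benjamini-Hochberg over all genes), where 19.6% of all 15504 tested genes were called. By direction, 2 of 26 members were called higher, against 10.2% of all genes, and 1 was called lower, against 9.49% of all genes. Over all genes 1575 were higher and 1471 lower, or 1088 and 1816 after median-of-ratios scaling. The tested members had 14 positive and 12 negative log2 fold changes with a median of 0.02, and the median of all tested genes was 0.05. At an unadjusted limma p under 0.05 the HOX share was instead 42.3%, against 36.1% of all genes, and no difference between shares was tested. At an adjusted p under 0.05 the share of HOX genes called was also below that of all genes in the other fits, which reuse the same libraries. With no filter it was 0 of 37 members where 1.3% of all genes were called, with median-of-ratios scaling 2 of 26 where 18.7% were, with the replicate number as a block 7 of 26 where 33% were, and by limma-voom on recovered reads 5 of 26 where 24.7% were. It was 3 of 26 without si-DLX6 library 1 (19.9% of all genes) and 4 of 26 without si-DLX6 library 2 (19.5%). It was 3 of 25 without si-control library 1 (14.7%) and 2 of 25 without si-control library 2 (13.3%).

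**Figure D2:**
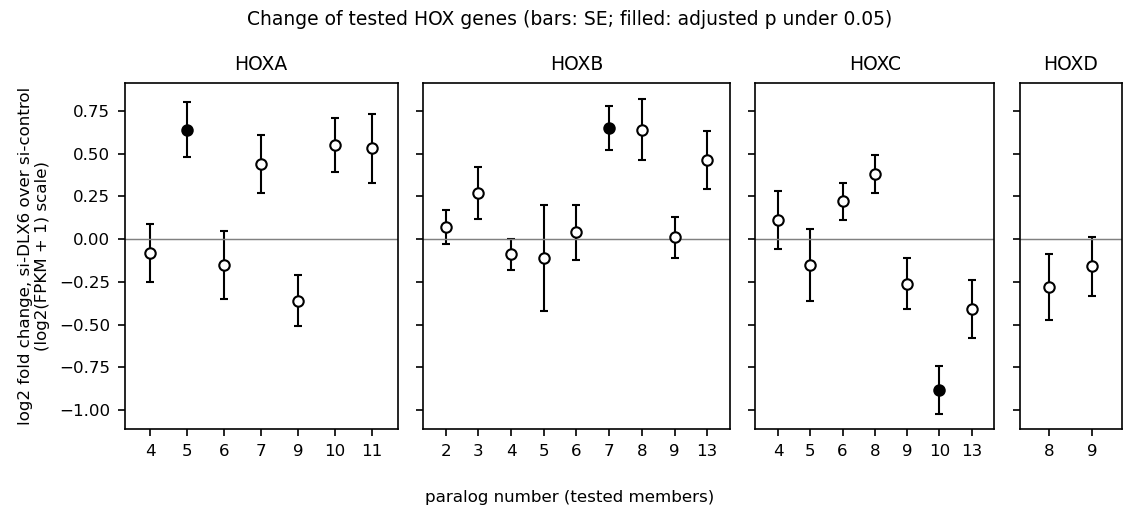
Log2 fold change of si-DLX6 over si-control, on the log2(FPKM + 1) scale, of tested HOX genes by cluster and paralog number. Bars are limma standard errors, and filled points passed an adjusted p of 0.05: HOXA5 (0.64), HOXB7 (0.65) and HOXC10 (−0.88).

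HOXB7, which is often overexpressed in carcinomas, was on average the most abundant HOX transcript and rose. It had 86.7 and 76.2 FPKM in si-DLX6 libraries (1243 and 1111 reads), against 56.5 and 47 FPKM in si-control libraries (932 and 622 reads). Both si-DLX6 libraries lay above both si-control libraries. The means were 81.5 ± 7.44 FPKM with si-DLX6 and 51.7 ± 6.68 FPKM with si-control (SD, n = 2 each), a 1.57-fold difference. The log2 fold change was 0.65 (SE 0.13, limma adjusted p = 0.0192). Per library total its reads were 156% of si-control (exact 95% interval 146% to 166%, counting error only). The adjusted p of HOXB7 was 0.0539 after median-of-ratios scaling and 0.0884 with no filter on low values, so that its call ended in both fits. HOXB7 spans 48607227 to 48633572 on chromosome 17, a span that contains HOXB8 and HOXB9 without shared exon bases in the annotation.

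HOXC10, a posterior gene known in mouse from lumbar motor neurons and the hindlimb, fell. It had 7.2 and 5.93 FPKM in si-DLX6 libraries (148 and 124 reads), against 12.6 and 13.2 FPKM in si-control libraries (299 and 250 reads). Every si-DLX6 value was lower than every si-control value. The means were 6.57 ± 0.898 FPKM with si-DLX6 and 12.9 ± 0.386 FPKM with si-control (SD, n = 2 each), and the si-control mean was 1.97-fold higher. The log2 fold change was −0.88 (SE 0.14, limma adjusted p = 0.011), the largest in size among the 26 tested members. Its reads with si-DLX6 were 51% of si-control (exact 95% interval 43.9% to 59%). HOXC10 passed the test without each library in turn, at adjusted p-values from 0.000211 to 0.0207 (limma), and its adjusted p was 0.064 with no filter. HOXC10 spans 53985065 to 53990279 on chromosome 12. Of its exon bases 2.7% also belong to HOXC-AS3 on the opposite strand, and 7.12% to a same-strand gene without a row.

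HOXA5, needed for lung development in mouse, rose on fewer reads. It had 3.91 and 4.58 FPKM in si-DLX6 libraries (68 and 81 reads), against 2.5 and 2.24 FPKM in si-control libraries (50 and 36 reads). Both si-DLX6 values exceeded both si-control values. The means were 4.25 ± 0.473 FPKM with si-DLX6 and 2.37 ± 0.18 FPKM with si-control (SD, n = 2 each), a 1.79-fold difference, and the reads were 178% of si-control (exact 95% interval 136% to 235%). The log2 fold change was 0.64 (SE 0.16, limma adjusted p = 0.0403). HOXA5 lost its call without si-DLX6 library 2 (adjusted p = 0.127), without si-control library 1 (0.0853), without si-control library 2 (0.148) and with no filter (0.115). HOXA5 spans 27141052 to 27143668 on chromosome 7.

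**Figure D3:**
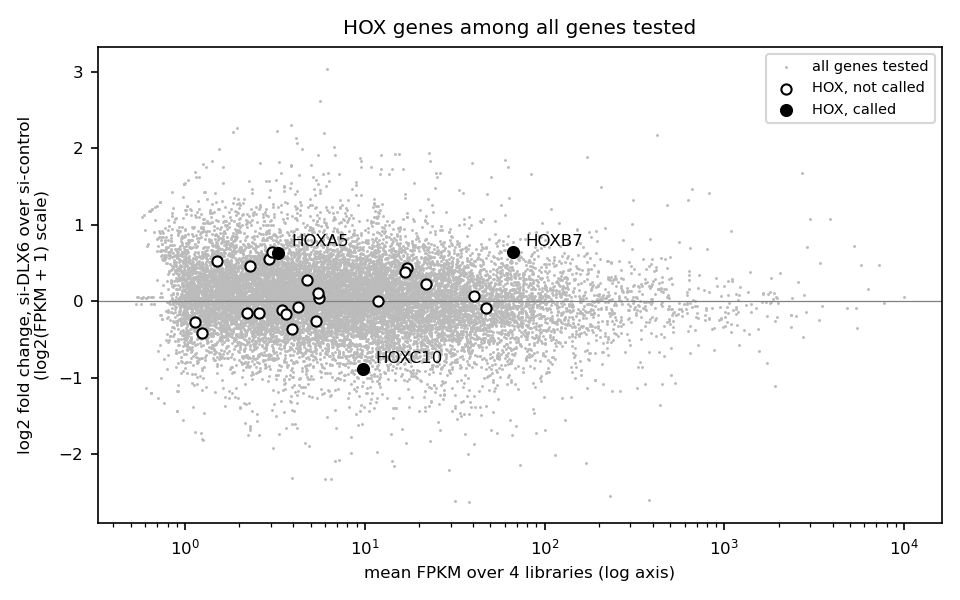
Log2 fold change of si-DLX6 over si-control, on the log2(FPKM + 1) scale, against the mean FPKM over 4 libraries (log axis) for the 15504 genes tested. Grey dots are all genes, open circles are HOX genes that were not called and filled circles are HOXA5, HOXB7 and HOXC10. The HOX genes lie within the range of other genes at the same level.

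In the HOXA cluster 1 of 8 tested members was called, and the log2 fold changes had a median of 0.19, with 4 positive and 4 negative. HOXA7, its most abundant member, had 21.5 and 18.1 FPKM in si-DLX6 libraries, against 16.5 and 12.3 FPKM in si-control libraries (log2 fold change 0.44, limma adjusted p = 0.109). HOXA10, a posterior gene with a role in the endometrium, had 3.45 and 3.87 FPKM with si-DLX6, against 2.06 and 2.29 FPKM with si-control (0.55, limma adjusted p = 0.0586). HOXA11, a paralog of limb and uterus development, had 2.19 and 1.73 FPKM with si-DLX6, against 1.31 and 0.818 FPKM with si-control (0.53, limma adjusted p = 0.115). In these 3 genes both si-DLX6 values were above both si-control values, as in 35.1% of all tested genes, and none of the 3 passed the test. HOXA9, known from leukaemia, had 3.34 and 3.28 FPKM with si-DLX6, against 4.47 and 4.57 FPKM with si-control, lower in both libraries (−0.36, limma adjusted p = 0.137). HOXA4 had 4.53 and 3.69 FPKM with si-DLX6 and 3.93 and 4.84 FPKM with si-control. HOXA6 had 2.5 and 1.64 FPKM with si-DLX6 and 2.17 and 2.58 FPKM with si-control. The groups overlapped in HOXA4 and HOXA6. The summed HOXA level was 44.1 and 40.6 FPKM with si-DLX6 and 36.2 and 33.2 FPKM with si-control, a ratio of 1.22, or 1.11 without HOXA7.

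Several HOXA genes share sequence with other rows, and whether reads were assigned by strand is not known from the labels or the table. Of the exon bases of HOXA7 62.5% also belong to the antisense gene HOXA-AS3, and of those of HOXA6 39.3%. Of the exon bases of HOXA11 31.1% lie in HOXA11-AS, and of those of HOXA4 14.5% lie in HOXA-AS2. HOXA11-AS had 0.985 and 2 FPKM with si-DLX6, against 0.535 and 0.334 FPKM with si-control, and HOXA-AS3 stayed under 0.2 FPKM. A readthrough row, HOXA10-HOXA9, had 2.8 and 2.53 FPKM with si-DLX6 and 3.3 and 3.38 FPKM with si-control. The values of HOXA4, HOXA6, HOXA7, HOXA9, HOXA10 and HOXA11 are uncertain to that extent.

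In the HOXB cluster 1 of 9 tested members was called, and the median log2 fold change was 0.07. HOXB4, which expands blood stem cells when overexpressed, had 46.4 and 44.9 FPKM in si-DLX6 libraries, against 47.7 and 49.2 FPKM in si-control libraries (−0.09, limma adjusted p = 0.56). HOXB2, a hindbrain gene, had 43.5 and 39.3 FPKM with si-DLX6 and 39.2 and 39.6 FPKM with si-control. HOXB9 had 11.8 FPKM in both si-DLX6 libraries, and 11.9 and 11.6 FPKM in si-control libraries. The fold of the group means was 0.941 for HOXB4, 1.05 for HOXB2 and 1 for HOXB9, against 1.57 for HOXB7. HOXB8, which like HOXB9 lies inside the annotated span of HOXB7 on the same strand, had 4.26 and 3.58 FPKM with si-DLX6, against 2.45 and 1.87 FPKM with si-control (0.64, limma adjusted p = 0.052). HOXB13, a partner of the androgen receptor in prostate, had 2.64 and 2.99 FPKM with si-DLX6, against 1.91 and 1.63 FPKM with si-control (0.46, limma adjusted p = 0.103). HOXB3 had 5.06 and 5.58 FPKM with si-DLX6, against 4.28 and 4.18 FPKM with si-control (0.27, limma adjusted p = 0.229). HOXB8, HOXB13 and HOXB3 were above si-control in both si-DLX6 libraries and HOXB4 was below, and none of them passed the test. Groups separated with si-DLX6 higher in 35.1% of all tested genes, and with si-DLX6 lower in 27.9%. HOXB5, a gene of lung branching in mouse, had 2.57 and 3.86 FPKM with si-DLX6 and 5.05 and 2.33 FPKM with si-control, and its standard error of 0.31 (log2 scale) was the largest among the tested members. HOXB6 had 5.3 and 5.99 FPKM with si-DLX6 and 6.03 and 4.93 FPKM with si-control. HOXB3, HOXB4 and HOXB6 share exon bases in the annotation, and the split of reads among them is uncertain. The summed HOXB level was 208 and 194 FPKM with si-DLX6, against 175 and 162 FPKM with si-control, a ratio of 1.19. Without HOXB7 that ratio was 1.02, and the ratio of the whole HOX sum was 1.04 in place of 1.15.

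**Figure D4:**
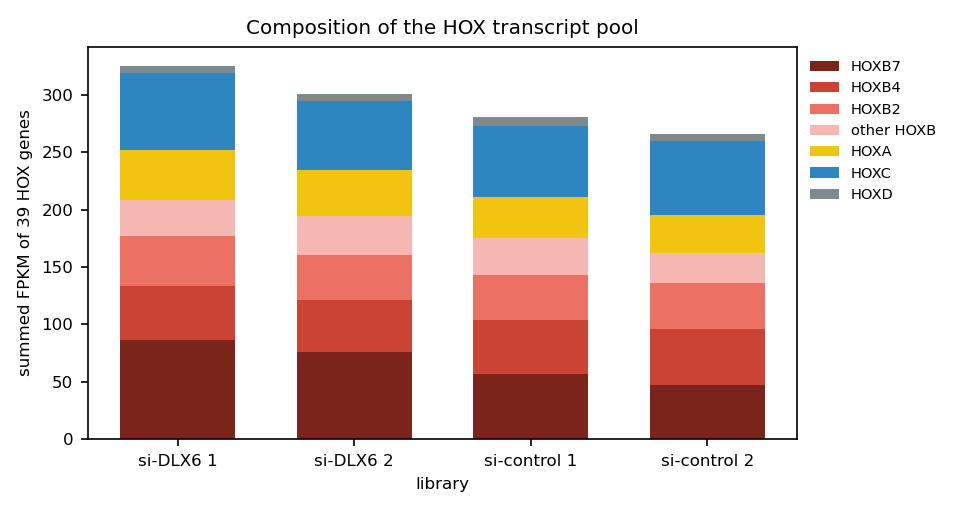
Summed FPKM of the 39 HOX genes in each library, split into HOXB7, HOXB4, HOXB2, the other HOXB genes and the HOXA, HOXC and HOXD clusters. The sums are 325 and 301 FPKM with si-DLX6 and 281 and 266 FPKM with si-control, and HOXB7 averages 81.5 FPKM with si-DLX6 and 51.7 FPKM with si-control.

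In the HOXC cluster 1 of 7 tested members was called, and 3 log2 fold changes were positive and 4 negative (median −0.15). HOXC6, the most abundant of them, had 24.9 and 22.6 FPKM in si-DLX6 libraries, against 20.1 and 20.3 FPKM in si-control libraries (0.22, limma adjusted p = 0.193). HOXC8, which patterns the thoracic skeleton in mouse, had 18.9 and 19.1 FPKM with si-DLX6, against 14.9 and 13.7 FPKM with si-control (0.38, limma adjusted p = 0.0563). Both had non-overlapping groups with si-DLX6 above, and neither passed the test. HOXC9, known in mouse from thoracic motor neurons, had 5.01 and 4.5 FPKM with si-DLX6, against 5.42 and 6.37 FPKM with si-control (−0.26, limma adjusted p = 0.273). HOXC13, a regulator of hair keratins, had 0.955 and 0.9 FPKM with si-DLX6, against 1.52 and 1.6 FPKM with si-control (−0.41, limma adjusted p = 0.137). In HOXC9 and HOXC13 both si-DLX6 values lay below si-control, and neither passed the test. HOXC13 reached 1 FPKM in the si-control libraries alone, so the filter favoured its lower direction. Of all tested genes 35.1% did not overlap with si-DLX6 higher, and 27.9% with si-DLX6 lower. HOXC4 had 6.45 and 5.08 FPKM with si-DLX6 and 4.88 and 5.65 FPKM with si-control, and HOXC5 had 2.9 and 1.94 FPKM with si-DLX6 and 2.41 and 3.14 FPKM with si-control. The groups overlapped in both, and HOXC4, HOXC5 and HOXC6 share exons, which makes the split of reads among them uncertain. Of the exon bases of HOXC9 9.71% also belong to HOXC-AS2 on the opposite strand. The summed HOXC level was 66.3 and 60.2 FPKM with si-DLX6 and 61.9 and 64 FPKM with si-control, a ratio of 1.01, or 0.947 after median-of-ratios scaling.

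In the HOXD cluster 2 of 9 genes could be tested and neither was called. HOXD9 had 3.74 and 3.03 FPKM in si-DLX6 libraries and 4.26 and 3.56 FPKM in si-control libraries (−0.16, limma adjusted p = 0.543). HOXD8 had 0.812 and 1.05 FPKM with si-DLX6, against 1.57 and 1.12 FPKM with si-control (−0.28, limma adjusted p = 0.35). HOXD9 overlapped between the groups and HOXD8 did not. HOXD13, a digit gene, had 0.677 and 0.737 FPKM with si-DLX6 and 0.483 and 0.864 FPKM with si-control, and HOXD11 had 3 and 2 reads with si-DLX6 and 8 and 5 reads with si-control. The summed HOXD level was 6.72 and 6.07 FPKM with si-DLX6 and 7.49 and 6.77 FPKM with si-control.

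Over all clusters, the si-DLX6 and si-control values did not overlap in 16 of 26 tested members, 10 higher and 6 lower, where 63% of all tested genes did not overlap (35.1% higher, 27.9% lower). An unadjusted p under 0.05 was reached by 11 members, and by 36.1% of all genes tested. These counts are 61.5% and 42.3% of the tested members, against 63% and 36.1% of all genes. HOXC13, which was tested only through its si-control values, is in both counts and among the posterior members. Of the 9 tested posterior members, 4 had positive and 5 negative log2 fold changes (median −0.16), and of the 14 tested central members 8 had positive and 6 negative ones (median 0.07).

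The clusters also hold the genes of miR-196, a microRNA with known HOX targets. Its mature sequences are shown with the seed (bases 2 to 8) in capitals, because their match in HOX transcripts can be set beside the values of those members. The sequences are from RefSeq on GRCh38.p14. The miR-196a sequence is encoded by MIR196A1 on chromosome 17 (48632532 to 48632553, minus strand) and by MIR196A2 on chromosome 12 (53991762 to 53991783, plus strand), and miR-196b by MIR196B on chromosome 7 (27169528 to 27169549, minus strand). Both share 1 seed.
hsa-miR-196a-5p: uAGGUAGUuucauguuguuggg
hsa-miR-196b-5p: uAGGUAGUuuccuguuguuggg
The seed match ACTACCT was searched on the transcript strand after the stop codon of GENCODE release 29 transcripts, with the longest such stretch of each gene. HOX stretches were taken from all coding transcripts, and those over all genes from the basic transcript set only. The shares are therefore not from like sets of transcripts. The match occurred in 9 of 39 HOX genes (23.1%, median stretch 866 bases) and in 1383 of 19381 genes with such a stretch (7.14%, median 1084 bases). Among these, HOXA7 had 4 matches, HOXA9 and HOXC8 had 2 each, and HOXA5, HOXB1, HOXB6, HOXB7 and HOXB13 had 1 each. Of the called members HOXA5 and HOXB7 thus hold a match, and the searched stretch of HOXC10 has none. Members with a match that were not called lay on both sides of 0, with log2 fold changes of −0.36 for HOXA9, 0.04 for HOXB6 (−0.04 after median-of-ratios scaling), 0.38 for HOXC8, 0.44 for HOXA7 and 0.46 for HOXB13. For miR-10a, encoded in the HOXB cluster, the seed match ACAGGGT occurred in 3 of 39 HOX genes (7.69%) and in 12.5% of all genes. HOXB8 holds the known near-complete site, in which 21 of 22 bases pair with miR-196a and 1 forms a G:U pair. The sites of the members that were called or had the smallest p among the others with a site are shown 5′ to 3′ with the stretch opposite the seed in capitals.
HOXB7: aacactgaaaaaatACTACCTa
HOXA5: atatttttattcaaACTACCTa
HOXC8: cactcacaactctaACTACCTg
HOXC8: taaatctttaacatACTACCTa
HOXB8: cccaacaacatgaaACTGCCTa
The sites shown, picked by p, are all in members with positive log2 fold changes, and those of HOXA9 (−0.36) are not shown. The match is a description of the letters and not a measured site, and a part of miR-196 in these values was not tested. Levels of mature microRNAs cannot be read from the rows of their genes. The MIR196A1 row had 0 and 5 reads with si-DLX6 and 1 and 0 reads with si-control, and MIR196A2, MIR196B, MIR10A and MIR10B were at 0 in all libraries.

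Of 28 named RNA genes inside the clusters 23 had a row, 8 were tested and 1 was called higher, 0 lower (12.5%, against 19.6% of all genes), with a median log2 fold change of 0.14. HOXB-AS1, antisense to HOXB2 and HOXB3, had 29.7 and 33.1 FPKM in si-DLX6 libraries, against 23.8 and 20.6 FPKM in si-control libraries, and rose (0.48, SE 0.12, limma adjusted p = 0.0374). It shares 374 exon bases with HOXB3 and 87 with HOXB2, so its value is uncertain where strand was not used. HOTAIRM1, transcribed from the HOXA cluster, had 4.39 and 4.4 FPKM with si-DLX6, against 3.17 and 2.47 FPKM with si-control (0.50, limma adjusted p = 0.0812). HOXC-AS2 had 1.14 and 1.49 FPKM with si-DLX6, against 2.46 and 2.26 FPKM with si-control (−0.54, limma adjusted p = 0.0764). The groups did not overlap in these 3, nor in HOXC-AS3 and the readthrough row HOXA10-HOXA9, where 63% of all tested genes did not overlap. Only HOXB-AS1 among the 8 passed the test. HOXC-AS3 had 4.41 and 3.57 FPKM with si-DLX6, against 3.38 and 2.81 FPKM with si-control (0.28, limma adjusted p = 0.289). HOXC-AS1 had 1.74 and 1.03 FPKM with si-DLX6 and 2.57 and 1.51 FPKM with si-control, and HOXD-AS2 had 1.93 and 2.03 FPKM with si-DLX6 and 1.32 and 2.84 FPKM with si-control. The groups overlapped in HOXC-AS1 and HOXD-AS2. HOTTIP was at 0, and HOTAIR had 2 and 1 reads with si-DLX6 and 1 read in each si-control library.

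Among the TALE cofactors, 2 of 5 tested genes fell and 0 rose (40% called, against 19.6% of all genes; median −0.21), of 9 named. MEIS2 had 1.68 and 1.88 FPKM in si-DLX6 libraries, against 5.66 and 6.04 FPKM in si-control libraries (−1.30, SE 0.16, limma adjusted p = 0.00573). PBX2 had 16.7 and 17.4 FPKM with si-DLX6, against 27.8 and 27.9 FPKM with si-control (−0.68, SE 0.10, limma adjusted p = 0.00998). PBX3, the most abundant cofactor, had 36.7 and 42.2 FPKM with si-DLX6, against 44.3 and 47.3 FPKM with si-control (−0.21, limma adjusted p = 0.216), and PBX4 had 2.74 and 2.8 FPKM with si-DLX6, against 2.14 and 1.4 FPKM with si-control (0.46, limma adjusted p = 0.143). MEIS1 stayed under 1 FPKM in every library.

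Of 23 named genes beside the clusters 17 were tested, and of these 1 rose and 2 fell (17.6% called, close to the 19.6% of all genes), with a median of 0.06. CALCOCO1, near HOXC, had 32.8 and 38.2 FPKM with si-DLX6, against 17.1 and 17.7 FPKM with si-control (log2 fold change 0.99, limma adjusted p = 0.00551). Also on chromosome 12 near HOXC, HNRNPA1 had 57.3 and 59.4 FPKM with si-DLX6, against 134 and 148 FPKM with si-control (−1.25, limma adjusted p = 0.00241), and COPZ1 had 111 and 103 FPKM with si-DLX6, against 189.6 and 198 FPKM with si-control (−0.86, limma adjusted p = 0.00511).

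Of 26 tested genes in the Polycomb list 3 rose and 2 fell, a share of 19.2% called beside 19.6% of all genes, with a median of −0.02. That list also holds genes of demethylases that remove a Polycomb mark, so it is not of Polycomb genes alone. RBBP7, a histone-binding subunit, had the largest change (log2 fold change −1.41) and PHC2 fell as well (−0.57), while RING1 (0.69), PHF1 (0.45) and CBX7 (0.58) rose. The catalytic EZH2 had 28.5 and 28.2 FPKM with si-DLX6, against 34.1 and 38 FPKM with si-control, and was not called. Of 23 Trithorax, MLL and cohesin-CTCF genes tested 1 rose and 4 fell (21.7% called), with a median of 0.09. Those that fell were MEN1 (−0.77), MLLT1 (−0.65), WDR5 (−0.50) and DPY30 (−0.41), and KMT2B (0.42) rose. Of 6 tested genes of retinoic acid handling 1 rose (16.7% called), the binding protein gene CRABP2 with 21.3 and 18.5 FPKM with si-DLX6, against 13.7 and 10.3 FPKM with si-control (0.70, limma adjusted p = 0.03). Of the ParaHox and other related homeobox genes 2 of 13 could be tested, MNX1 and GBX2, and 0 were called.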

How the data were processed

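The authors deposited 1 table with a value column for each of 4 libraries. The extract protocol in the labels gives 1.3 ug of total RNA and a SMARTER mRNA-Seq kit. The header names no unit. The deposited values were taken as FPKM, since they are whole multiples of a step of each gene. Dividing by it gave whole reads for 28632 of 28637 rows above 0 (99.98%, within 0.01 reads), and a factor shared by all 4 read numbers of a gene would be lost. Not given in the sources used here: aligner, counter, annotation, strand use. A mouse build (GRCm38, mm10) stands in the submitters' processing notes, while rows carry human symbols, so the build behind the values is unknown.

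Computed here were limma-trend fits (limma 3.58.1, R 4.3.3) on log2(FPKM + 1), fitting group alone, for the 15504 genes that reached 1 FPKM in 2 or more libraries, Benjamini-Hochberg adjusted. Fold changes on that scale understate those of low genes. Exact intervals cover counting error only. Between replicates, reads differed beyond sampling noise (chi-square over degrees of freedom 7.37 with si-DLX6, 6.22 with si-control), so each library counted as 1 sample. Alternatives were 2 scalings, other filters, a pseudocount of 0.1, a replicate block, leaving out each library and limma-voom on recovered reads. The fit was tested on simulated data. These were drawn with the same spread setting for every gene, so that test does not bear on the spread of these libraries. The design foresaw another test only for counts.

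Members and lists were chosen with earlier results of these data known. Named are the tested members and, from each list, called genes up to 4 by smallest p, plus the RNA genes inside the clusters with a mean of at least 1 FPKM. CDKN2A, MTAP, ALDH1A1, AKR1B10, HOTAIR, HOTTIP, HOXA-AS3, HOXA11-AS, CBX7, DPY30, EZH2, MEIS1, PBX3, PBX4, MNX1 and GBX2 and the microRNA genes were named after their values were seen. The values of 1 member are not reported here by themselves, and it is left out of the plots by gene and of the counts of single-gene alternatives.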

Additional observations from a re-analysis of the deposited data

How the results depend on the processing

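Counts of calls moved most with the filter and the replicate block. With no filter on low values 372 genes and 0 HOX genes were called by limma (10 HOX genes at an unadjusted p under 0.05). With the replicate number as a block 5119 genes and 7 HOX genes were called, adding HOXA7, HOXA10, HOXB8 and HOXC8. The numbers are not stated to mark a shared culture or day, and the deviations of same-numbered libraries correlated at 0.202 over genes with only 2 pairs. By limma-voom on recovered reads 5 HOX genes were called, adding HOXA10 and HOXB8. Leaving out 1 library gave 2006 to 2954 calls, the lowest without si-control library 2, and 2 to 4 HOX calls, HOXA7 and HOXB8 among them without si-DLX6 library 2 and HOXA7 without si-control library 1. In these fits the lone library of a group is assumed to vary like the other group.

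HOXB7 and HOXC10 were called in all 4 fits without 1 library. Of 273 values of single HOX genes under alternatives, 242 kept direction and call, 9 became called, 7 lost the call and 15 changed sign. The sign changes were all in genes that were not called. With median-of-ratios scaling they were HOXB2 (−0.03), HOXB6 (−0.04) and HOXB9 (−0.08), and with upper-quartile scaling HOXB9 (−0.03). Without 1 library the log2 fold change ranged from −0.20 to 0.05 for HOXA4, −0.35 to 0.06 for HOXA6, −0.01 to 0.14 for HOXB2, −0.54 to 0.32 for HOXB5, −0.08 to 0.16 for HOXB6, −0.01 to 0.02 for HOXB9, −0.04 to 0.25 for HOXC4 and −0.36 to 0.05 for HOXC5. Ratios of summed FPKM with median-of-ratios scaling were 1.15 for HOXA, 1.12 for HOXB and 0.947 for HOXC. Without the most abundant member they were 1.11, 1.02 and 0.925, an alternative chosen after seeing the data. The cause of these changes was not tested. In the HOXD cluster 7 of 9 genes were under the level needed for a test.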
